A study of Homo sapiens with 21 samples.

Results

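The receptor tyrosine kinase genes EGFR, ERBB2, ERBB3, ERBB4, IGF1R, INSR, MET, RET, KIT and DDR1 were examined in ChIP-seq peak lists from CAMA1, a human breast cancer cell line whose labels describe it as oestrogen receptor positive with amplified FGFR1. The 10 genes were taken by name from 19974 protein-coding genes, and a peak was assigned to one of them where it lay inside the gene, within 1 kb of its ends, or within 50 kb outside it (hg38). After siRNA against FOXA1 (siFOXA1), or in the group labelled siNT that was set against it, cells were collected 72 h after transfection for FGFR1 ChIP. Untransfected cells were taken for ChIP of FGFR1, Pol II S5P (an antibody to the C-terminal domain of Rpb1, the largest subunit of RNA polymerase II), H3K4me3, H3K27ac and FOXA1. All groups share the same cell line at under 10 passages and 48 h without estradiol, and each of the 7 groups has 2 peak lists, 14 in all. A further 7 input samples have no peak list here. Nothing in the lists measures FOXA1 in the transfected cells.

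Receptor tyrosine kinases are membrane proteins that bind a ligand outside the cell, pair up and phosphorylate tyrosines on themselves and on adaptor proteins inside it. EGFR, ERBB2, ERBB3 and ERBB4 form 1 family, in which ERBB2 has no known ligand of its own and ERBB3 has little kinase activity, so that these receptors signal as pairs. IGF1R and INSR bind insulin-like growth factors and insulin, MET binds hepatocyte growth factor, RET binds GDNF-family ligands with a co-receptor, KIT binds stem cell factor, and DDR1 binds collagen. H3K4me3 marks the nucleosomes beside active or poised start sites, H3K27ac marks active promoters and enhancers, and FOXA1 is a forkhead pioneer factor of luminal breast cells. FGFR1 is itself a receptor tyrosine kinase, and the series asks where it is found on chromatin.

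The promoters of 5 of these genes are shown because they span the range of what the lists held: INSR and DDR1 with FGFR1 peaks in both untransfected lists, ERBB2 with an FGFR1 peak in 1 list, MET with histone marks but no FGFR1 peak, and EGFR with no peak of any kind there. Each runs 5′ to 3′ on the gene's own strand, from 250 bases before a RefSeq start to 50 after it (RefSeq, GRCh38.p14), and capitals mark a GC box (GGGCGG) or a CCAAT box on either strand. The positions are chr19:7294365-7294664 on the minus strand for INSR, and on the plus strand chr6:30883834-30884133 for DDR1, chr17:39687844-39688143 for ERBB2, chr7:55018767-55019066 for EGFR and chr7:116671946-116672245 for MET.
INSR: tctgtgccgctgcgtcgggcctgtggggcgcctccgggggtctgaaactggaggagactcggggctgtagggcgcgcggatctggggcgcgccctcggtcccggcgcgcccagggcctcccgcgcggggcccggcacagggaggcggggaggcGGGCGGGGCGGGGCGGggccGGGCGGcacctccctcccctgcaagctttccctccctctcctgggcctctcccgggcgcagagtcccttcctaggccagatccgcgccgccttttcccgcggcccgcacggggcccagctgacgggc
DDR1: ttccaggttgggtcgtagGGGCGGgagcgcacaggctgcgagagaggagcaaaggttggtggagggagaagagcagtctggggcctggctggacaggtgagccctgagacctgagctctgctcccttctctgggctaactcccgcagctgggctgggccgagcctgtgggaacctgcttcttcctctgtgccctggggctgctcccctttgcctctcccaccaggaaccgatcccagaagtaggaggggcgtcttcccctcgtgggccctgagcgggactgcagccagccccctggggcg
ERBB2: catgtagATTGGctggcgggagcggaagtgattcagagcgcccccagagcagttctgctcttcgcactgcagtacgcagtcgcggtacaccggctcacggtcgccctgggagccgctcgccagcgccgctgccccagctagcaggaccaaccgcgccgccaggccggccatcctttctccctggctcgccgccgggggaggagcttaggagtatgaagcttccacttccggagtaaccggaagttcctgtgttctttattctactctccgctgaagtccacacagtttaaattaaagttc
EGFR: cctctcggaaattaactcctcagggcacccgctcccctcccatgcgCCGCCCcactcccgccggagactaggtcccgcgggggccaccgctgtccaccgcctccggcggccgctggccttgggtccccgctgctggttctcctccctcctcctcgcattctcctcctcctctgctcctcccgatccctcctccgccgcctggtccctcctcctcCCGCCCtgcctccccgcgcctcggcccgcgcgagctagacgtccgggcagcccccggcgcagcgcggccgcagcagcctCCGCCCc
MET: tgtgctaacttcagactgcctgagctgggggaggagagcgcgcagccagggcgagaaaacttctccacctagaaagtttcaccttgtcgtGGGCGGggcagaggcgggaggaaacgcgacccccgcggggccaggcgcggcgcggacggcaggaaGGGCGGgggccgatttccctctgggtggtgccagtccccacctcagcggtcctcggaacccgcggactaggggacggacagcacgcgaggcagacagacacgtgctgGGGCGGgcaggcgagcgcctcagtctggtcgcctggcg
The INSR promoter held 4 GC boxes, 3 of them overlapping in a single run, and 36 CpG, with 78.3% G or C. The DDR1 promoter, at the start numbered 30884084, held 1 GC box, 11 CpG and 66.7% G or C. At the 1 start tabulated for ERBB2, the promoter held 1 CCAAT box, on the opposite strand, 24 CpG and 60.7% G or C. That start lies 37 bp from an end of PGAP3. Pol II S5P and H3K4me3 were higher at a site further inside ERBB2, for which no sequence is shown. DDR1 promoters at the starts numbered 30883908 and 30884519 also had FGFR1 peaks in both untransfected lists. They held 9 and 34 CpG, with 65.3% and 78.7% G or C, so the values of DDR1 depend on the start taken. EGFR and MET each held 3 GC boxes, with 33 and 30 CpG. Over 34789 RefSeq promoters of the same length, 44.9% held GGGCGG and 34.6% held CCAAT, and the medians were 58.7% G or C and 14 CpG. The forkhead core TGTTTAC, present in 3.42% of all promoters, was in none of the 18 promoters listed for 9 of the 10 genes, including those with a FOXA1 peak on them.

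The lists differed in length from 4332 to 154358 peaks on chromosomes 1 to 22 and X, and FGFR1 had 5341 and 13135 peaks in untransfected cells, 4332 and 5056 after siFOXA1 and 6007 and 6594 with siNT. The deposited fold enrichments of 12 lists were whole fragment numbers plus 1 over a single background level plus 1 per list, which gives depth in place of a read total: the background was 2.11 to 2.20 fragments per position in the transfected lists, against 3.40 and 3.50 in untransfected FGFR1 and 2.11 to 4.33 over all 12. The Pol II S5P lists did not lie on such a scale, so no fragment numbers are given for them. A peak had to reach a fold enrichment of about 3 to be listed (lowest listed value 3.41 and 2.89 in the FGFR1 lists), so a gene without a peak had none that passed at this depth, and a weaker peak cannot be told apart from a peak in fewer cells. Of markers read as marks at a gene end in both lists, H3K4me3 and H3K27ac were at 5 and 6 of 6 luminal genes, 0 and 1 of 3 basal genes, 1 and 2 of 3 mesenchymal genes, 1 and 0 of 3 blood genes and 0 and 2 of 2 endothelial genes. The luminal gene without H3K4me3 there was ESR1, and COL1A1 carried both marks.

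In untransfected cells, FGFR1 was found in both lists at the start of INSR and ERBB3 and at internal starts of DDR1, and at none of the other 7 genes. A region is counted here when peaks of both lists of a group overlap, and its fold enrichments are given as those of list 1 and list 2. At a gene end, within 1 kb, 2 of 10 genes had such an FGFR1 region, beside 19.9% of all protein-coding genes. In the gene or within 1 kb of it the count was 3 of 10, beside 22.4%. With a stricter q-value (-log10 of at least 5) INSR alone kept a region at an end, and with the FGFR1 lists shortened to equal length none of the 10 did. The counts of 2 and 3 of 10 are near the background shares.

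INSR, the insulin receptor, had an FGFR1 region over its start. It spanned chr19:7294244-7294700, across the start and over the GC boxes shown, with a fold enrichment of 5.69 in list 1 (24 fragments at the summit) and 6.22 in list 2 (27 fragments). Those values stood at percentiles 56.4 and 63.6 of their lists, so the peak was of middling height among FGFR1 peaks. Pol II S5P was there at 4.71 and 5.0, H3K4me3 at 103 and 105, H3K27ac at 38.1 and 33.9 and FOXA1 at 7.72 and 8.62. A further FGFR1 region lay inside INSR, 96.1 kb from the start at chr19:7198141-7198501, with 4.55 in list 1 and 5.55 in list 2. It sat in an interval with the strongest Pol II S5P of the gene (15.5 and 9.23), H3K4me3 at 97.8 and 99.5 and H3K27ac at 37.1 and 36.1, and with no FOXA1 region. No start in the RefSeq promoter table lay within 1 kb of it.

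ERBB3, the family member with little kinase activity of its own, had a narrow FGFR1 region over its start at chr12:56079974-56080328. Fold enrichment was 4.09 in list 1 and 6.66 in list 2, from 17 and 29 fragments, and the heights stood at percentiles 8.87 and 69.0 of their lists, so the peak in list 1 was among the lowest listed. The same start carried Pol II S5P at 9.78 and 9.23, H3K4me3 at 104 in both lists, H3K27ac at 50.5 and 57.6, and FOXA1 regions of 5.42 and 7.50 and of 6.26 and 6.94 on either side of the FGFR1 region. The start is taken as the end with the lower coordinate, ERBB3 being known to run on the plus strand. At the other end of ERBB3, H3K4me3 at 99.7 and 104 covered the start of PA2G4, a neighbour whose gene begins there, and FGFR1 was listed there only in list 2, at 6.44.

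DDR1, the collagen receptor, has 8 RefSeq starts, and its FGFR1 region lay over a cluster of internal ones and not at the outermost start. The region spanned chr6:30883717-30884905, 3.34 kb inside the gene, with 6.60 in list 1 (28 fragments) and 8.66 in list 2 (38 fragments), at percentiles 71.2 and 84.2. Pol II S5P there was 8.90 and 7.0, H3K4me3 103 and 104 and H3K27ac 58.4 and 65.3, and the strongest FOXA1 region of the gene, 38.6 and 36.6, began 544 bp downstream of the FGFR1 region. The rule on gene ends does not see this cluster. By the 15812 genes with a RefSeq start in the promoter table, counting any start, FGFR1 was at 20.8% of genes, and INSR and DDR1 were the 2 of 9 tabulated genes that had it. On the same count Pol II S5P was at 3 of the 9, beside 41.6%, H3K4me3 at 8, beside 69.6%, H3K27ac at 8, beside 69.1%, and FOXA1 at 4, beside 30.5%.

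**Figure D1:**
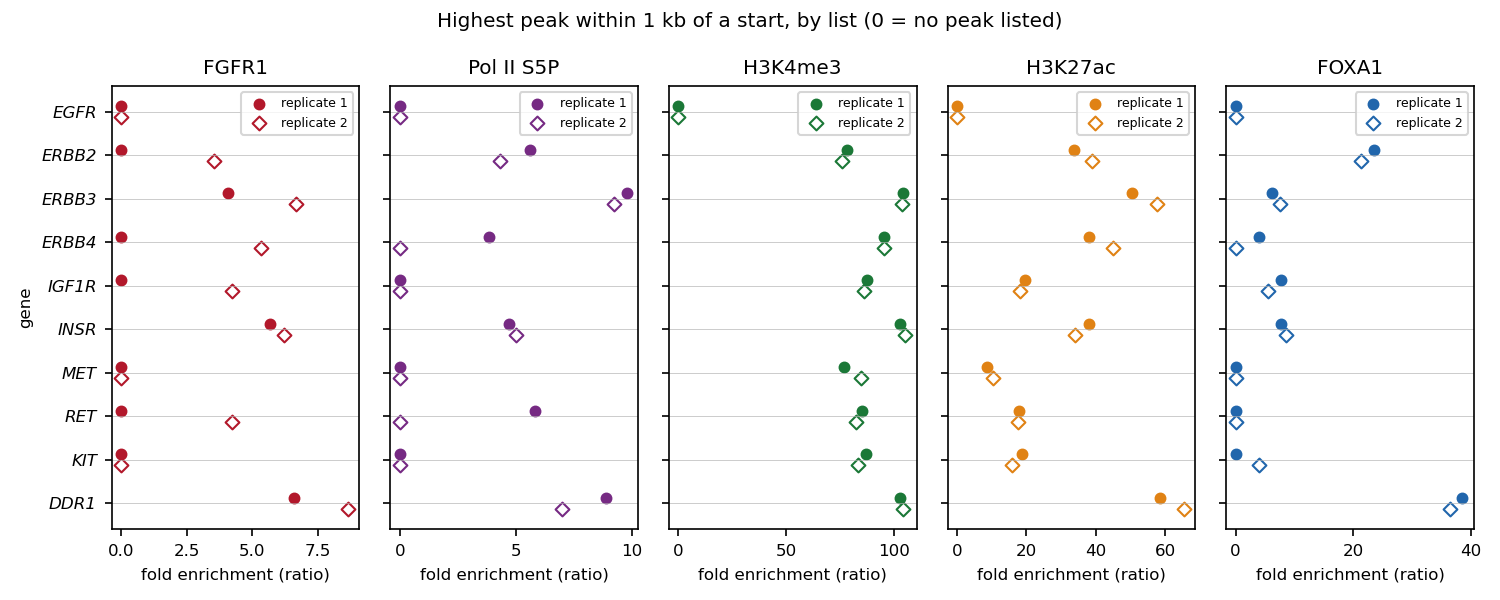
Highest fold enrichment (ratio over background, linear axis) of any peak within 1 kb of a start of each of the 10 genes, with list 1 as filled circles and list 2 as open diamonds, for the 5 ChIP targets in untransfected cells; 0 means that no peak was listed. ERBB3, INSR and DDR1 have FGFR1 points above 0 in both lists, ERBB2, ERBB4, IGF1R and RET in list 2 only, and EGFR is at 0 in every panel.

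At 4 more genes FGFR1 was listed at a start in the longer list 2 alone. The values were 3.55 at ERBB2 (15 fragments), 5.33 at ERBB4 (23 fragments), 4.22 at IGF1R (18 fragments) and 4.22 at the second start of RET (18 fragments). Those of ERBB2, IGF1R and RET were low in that list, at percentiles 4.04, 22.8 and 22.8, while that of ERBB4 stood at 49.7. List 2 alone put a peak at a start of 44% of the 15812 genes, against 20.9% for list 1, so list length and presence at a start move together, and the part of depth in these 4 peaks was not tested. Inside ERBB2, list 2 also held peaks of 3.77 and 5.77 at 16.8 and 17.9 kb from the start. EGFR, MET and KIT had no FGFR1 peak in either list, in the gene or within 50 kb of it.

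Most FGFR1 regions in the windows belonged to neighbours. Of 11 regions found in both lists, 7 lay at the ends of other genes: MIEN1 beside ERBB2 (6.82 and 10.2), RPS26 (4.09 and 7.99), RPL41 (6.60 and 9.10), the RPL41 and ZC3H10 pair (6.14 and 12.4) and MYL6B (4.32 and 4.00) around ERBB3, and GTF2H4 (5.0 and 5.55) and the GTF2H4 and VARS2 pair (7.28 and 9.77) beside DDR1. RPS26 and RPL41 encode ribosomal proteins, VARS2 a mitochondrial valyl-tRNA synthetase, GTF2H4 a subunit of the transcription factor TFIIH and MYL6B a myosin light chain. With flanks included, 4 of 10 genes had an FGFR1 region, beside 40.4% of all genes. FGFR1 peaks were also frequent around these windows: ERBB3 had 14 and 32 FGFR1 peaks in the 1 Mb around its midpoint and DDR1 15 and 29, while KIT and ERBB4 had 0 in both lists. All 11 regions also carried Pol II S5P, H3K4me3 and H3K27ac, as did 83.1%, 95.3% and 96.1% of all 4736 FGFR1 regions, each share taken alone. FOXA1 was on 8 of the 11, beside 44.0% of all FGFR1 regions.

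**Figure D2:**
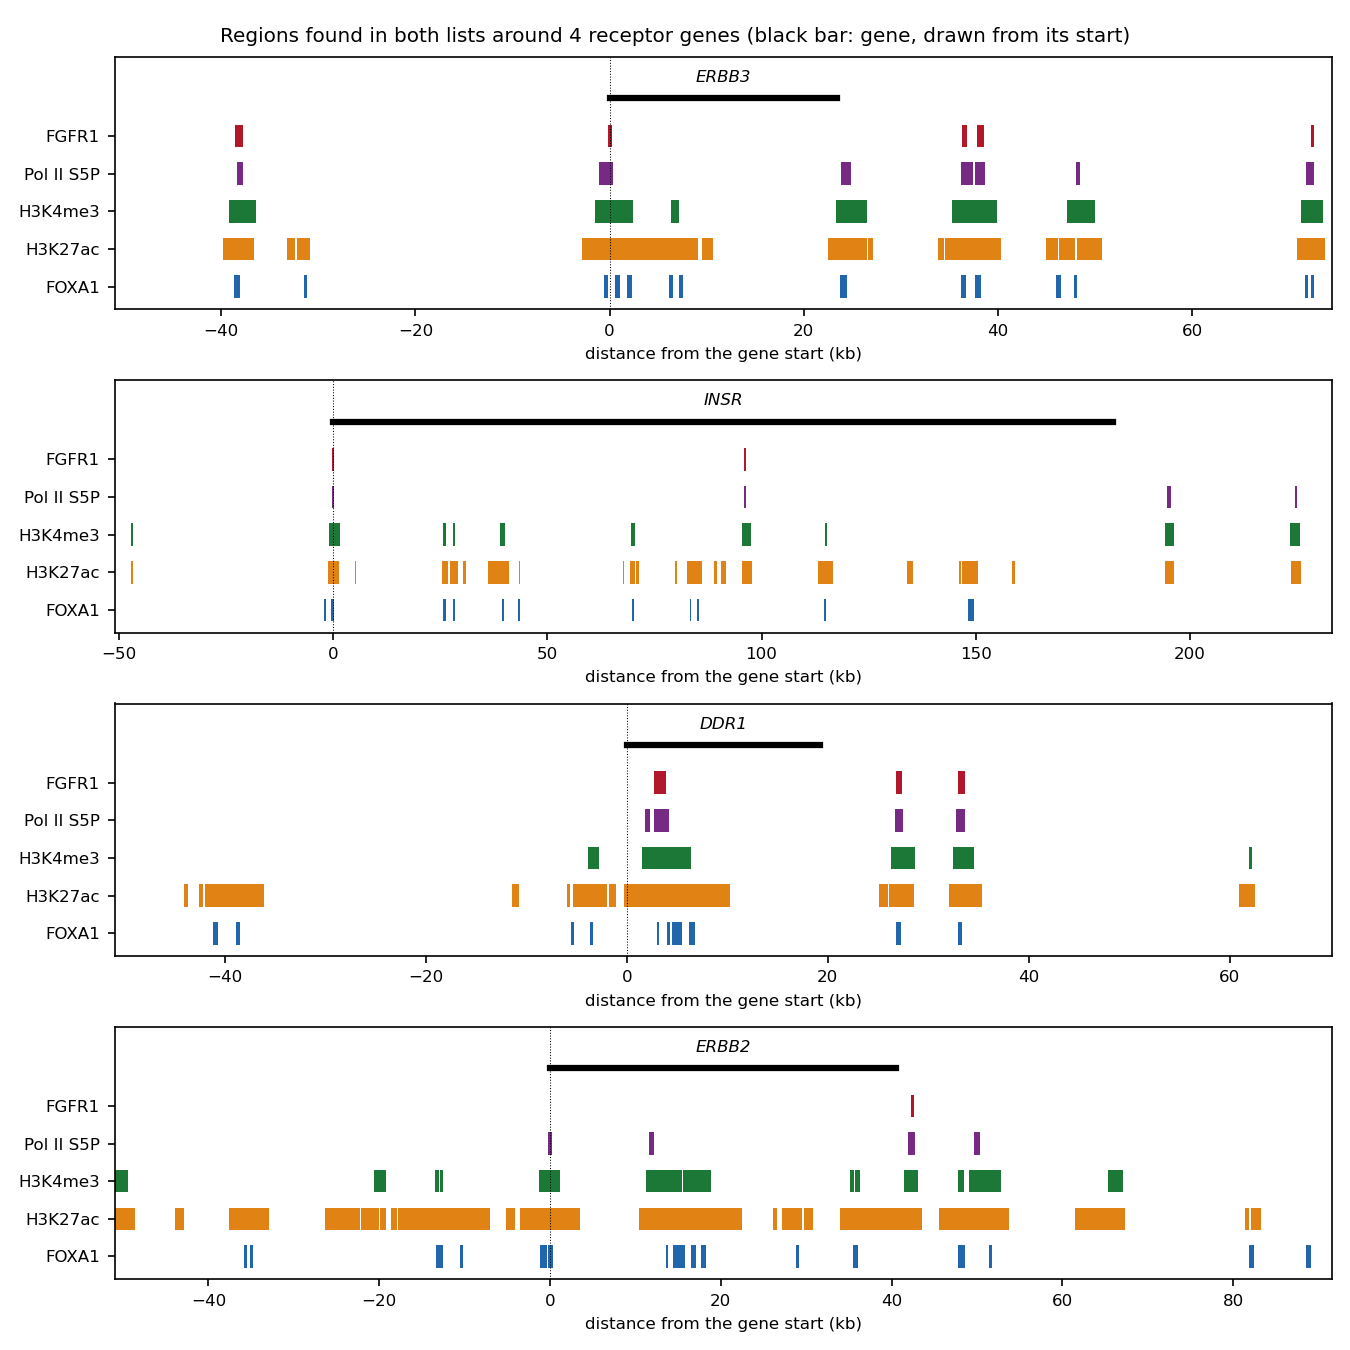
Regions found in both lists of each target around ERBB3, INSR, DDR1 and ERBB2, as coloured bars to scale along the distance from the gene start in kb, with the gene as a black bar. FGFR1 bars sit where Pol II S5P and H3K4me3 bars do, at the ERBB3 and INSR starts, inside INSR, at the internal DDR1 starts and at neighbours, and ERBB2 has none over the gene itself.

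Pol II S5P was at fewer of these genes than the histone marks. It was found in both lists at an end of 3 of 10 genes, ERBB2, ERBB3 and INSR, beside 38.9% of all genes, and in the gene or within 1 kb of 4, with DDR1 added, beside 42.5%. Fold enrichment at the ERBB2 start was 5.59 in list 1 and 4.33 in list 2. ERBB4 (3.83) and RET (5.81) had a peak at a start in list 1 alone, and EGFR, IGF1R, MET and KIT had none in either list. Taken singly, the Pol II S5P lists put a peak at a start of 50.3% (list 1) and 42% (list 2) of genes. Among genes with H3K4me3 and Pol II S5P at any RefSeq start, 46.6% had FGFR1 there, and among genes with H3K4me3 but without Pol II S5P in both lists, 5.21% did. ERBB3, INSR and DDR1 had all 3, ERBB2 had H3K4me3 and Pol II S5P with FGFR1 in list 2 alone, and the 5 genes with H3K4me3 and no Pol II S5P region had no FGFR1 region.

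H3K4me3 was at an end of 8 of 10 genes, beside 66.6% of all genes, and the exceptions were DDR1, which had it at the internal starts, and EGFR. Within the gene or 1 kb around it, both histone marks were in all 10 genes, beside 74.2% of all genes for H3K4me3 and 75.4% for H3K27ac. Those shares were not matched for gene length. Start values ran from 76.0 at ERBB2 to 105 at INSR, with the lists close to each other: ERBB4 had 95.6 and 95.3, IGF1R 87.7 and 85.9, KIT 86.9 and 83.4, RET 85.2 and 82.5, ERBB2 78.4 and 76.0, and MET 77.0 and 84.8. MET was below KIT, RET and ERBB2 in list 1 and above them in list 2, so its place among them was not resolved. H3K27ac was at an end of 9 of 10 genes, beside 67.5%, and spread over a wider scale. It was highest at DDR1 (58.4 and 65.3) and ERBB3 (50.5 and 57.6), and lower at ERBB4 (38.1 and 45.0), INSR (38.1 and 33.9) and ERBB2 (33.8 and 39.0), which overlapped one another. IGF1R (19.6 and 18.1), KIT (18.7 and 16.0) and the first RET start (12.9 and 16.5) were lower again, with 17.7 and 17.7 at the second RET start, and MET was lowest at 8.62 and 10.4. MET, the receptor for hepatocyte growth factor, thus had an H3K4me3 peak within the range of the other genes, and an H3K27ac peak below all of theirs in both lists. The place of ERBB2 for both marks is that of its tabulated start, where marks are shared with PGAP3. A site further inside ERBB2 held H3K4me3 of 102 and 104 and H3K27ac of 46.7 and 54.7.

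EGFR was the 1 gene with nothing at a start: neither of its 2 RefSeq starts had a peak within 1 kb in any of the 14 lists. Of the 15812 tabulated genes, 26.7% had no region of any of the 5 untransfected targets at a start. Its gene body held H3K4me3 of 6.28 and 5.96 at 159 kb from the start and of 3.55 and 3.69 at 162 kb, 4 H3K27ac regions, the strongest with 7.90 and 7.02, and 2 FOXA1 regions, the stronger with 15.6 and 18.7 at 162 kb. FOXA1 regions lay upstream: 5 within 50 kb, the strongest 30.3 kb before the start with 45.3 and 45.0, at chr7:54988382-54989101, and without H3K27ac. The strong H3K4me3 region in its window (85.2 and 83.4) was at the start of ELDR, a non-coding RNA gene downstream.

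ERBB2 begins 37 bp from an end of PGAP3, and a RefSeq start of PGAP3 lies within 1 kb of the regions there. Marks at the ERBB2 start are thus shared with PGAP3 and cannot be assigned to either gene. The strongest sites of ERBB2 lay inside the annotated gene. Pol II S5P was 10.0 and 9.46 at 11.9 kb from the start, above the 5.59 and 4.33 of the tabulated start itself. The RefSeq promoter table holds 1 start for ERBB2, and no tabulated start lay within 1 kb of this inner site. Whether transcription of ERBB2 also begins at the inner site was not tested. H3K4me3 reached 102 and 104 there, across chr17:39699282-39703519, and H3K27ac 46.7 and 54.7. The highest FOXA1 peak of all 10 genes, 73.2 and 69.7, lay in this interval at chr17:39702455-39703938, 15.1 kb from the start and above 99.9% of FOXA1 peaks. H3K27ac regions covered 64.2% of ERBB2, 52.8% of DDR1 and 47.5% of ERBB3, against 1.51% of EGFR and 2.28% of KIT.

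IGF1R, RET and KIT had marked starts and, within or beyond the gene, further sites. In IGF1R an H3K4me3 region of 69.1 and 68.9 lay 204 kb from the start, next to a single H3K27ac region of 14497 bp (22.99 and 25.4) that held FOXA1 regions of 18.6 and 17.6 and of 18.8 and 17.2. The H3K27ac of this interval was above that of the IGF1R start, 19.6 and 18.1, in both lists. In RET, H3K4me3 of 61.5 and 60.7 lay 28.4 kb into the gene, within 1 kb of its second RefSeq start, and below the 85.2 and 82.5 of the first. KIT had 1 H3K4me3 and 1 H3K27ac region in the gene, both at the start, and its other regions of these marks (H3K4me3 6.83 and 7.37, H3K27ac at most 7.19 and 6.53) lay around its strongest FOXA1 region outside the gene. MET had 6 FOXA1 regions in the gene and 7 in the flanks, the highest 39.2 kb from the start, with H3K4me3 of 6.28 and 3.97 beside it.

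FOXA1 was in or beside all 10 genes, beside 60.9% of all genes, and at an end of 4, ERBB2, ERBB3, IGF1R and INSR, beside 32.3%. The 60.9% is over genes of every length, and a longer gene has more room for a region. Among 3351 genes of at least 100 kb, FOXA1 density ranked 417 for ERBB4, 439 for IGF1R, 1016 for INSR, 1258 for MET and 2895 for EGFR. ERBB2 had the highest FOXA1 start peak of those 4 (23.6 and 21.4), while INSR (7.72 and 8.62), IGF1R (7.72 and 5.44) and the ERBB3 start regions (6.26 and 6.94, and 5.42 and 7.50) overlapped. The strongest FOXA1 region of INSR was 149 kb into the gene (53.4 and 48.0) and that of RET 32.2 kb before it (45.5 and 44.8). MET, with 20.9 and 19.1 at its strongest, IGF1R, with 19.0 and 19.1, and KIT, with 26.3 and 26.1 at 124 kb from the start and outside the gene, had lower maxima. Per 100 kb of gene, the median over the 10 genes was 6.93 FOXA1 regions, against 2.73 over all protein-coding genes, 9.62 against 5.14 for H3K27ac and 3.14 against 2.64 for H3K4me3. These medians are not matched for gene length, and regions within 1 kb of a gene count without adding to its length. For FOXA1, EGFR (1.04) and KIT (2.42) were below the median of all genes, and the other members were above it.

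**Figure D3:**
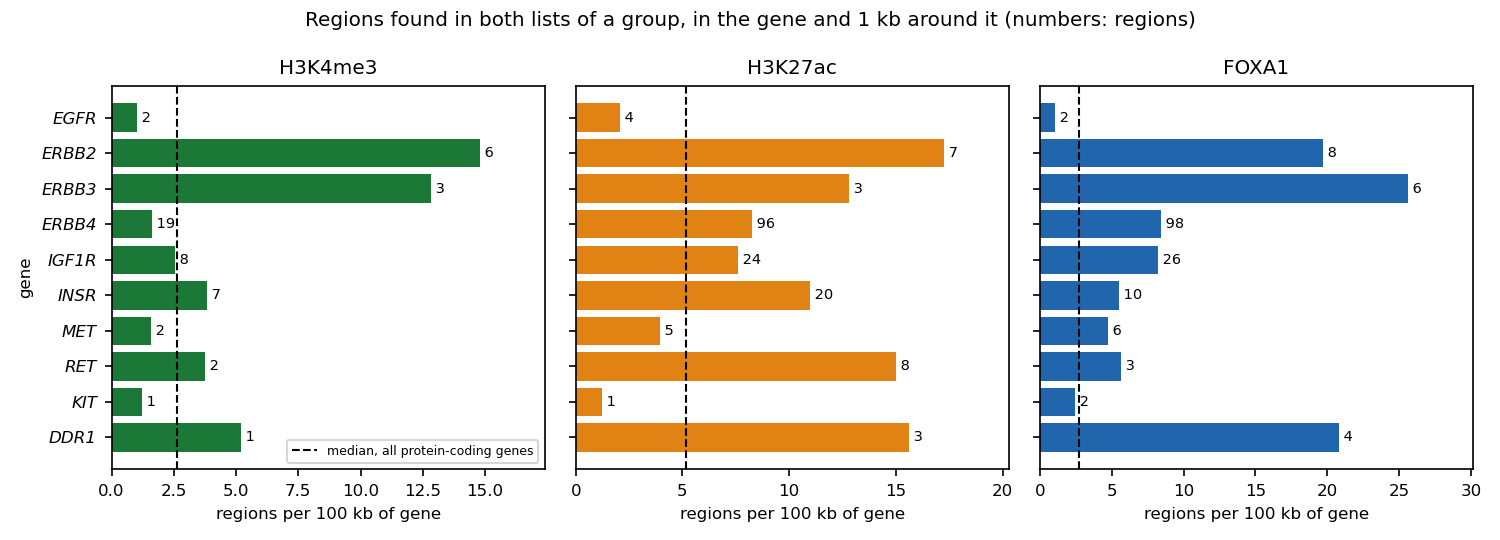
Regions found in both lists per 100 kb of gene (bars from 0, linear axis; the number of regions at the bar end) for H3K4me3, H3K27ac and FOXA1 in each of the 10 genes, with the dashed line at the median of all protein-coding genes. ERBB2, ERBB3 and DDR1, the 3 shortest genes, have the highest FOXA1 densities, at 19.7, 25.6 and 20.8, while ERBB4 has the most regions, 98, at a density of 8.43. Regions within 1 kb of a gene are counted without adding to its length, which raises the densities of short genes. Of 8 FOXA1 regions counted for ERBB2, 7 touched the gene, and 4 of 6 did for ERBB3 and 4 of 4 for DDR1.

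ERBB4, the neuregulin receptor and by far the longest of the genes at 1163 kb, held 98 FOXA1 regions, the second highest number of any protein-coding gene. Its 96 H3K27ac regions ranked 6 and its 19 H3K4me3 regions ranked 7. By density ERBB4 stood lower, at rank 417 of 3351 genes of at least 100 kb for FOXA1 and at rank 539 for H3K27ac. The strongest FOXA1 regions lay 581 kb (60.7 and 55.5), 1065 kb (50.1 and 47.1) and 611 kb (42.6 and 43.3) from the start. H3K27ac covered 154 kb, 13.3% of the gene, and was on 50 of the 98 FOXA1 regions. At the start, H3K4me3 was 95.6 and 95.3 and H3K27ac 38.1 and 45.0, and no target but the 2 histone marks was there in both lists. Over all 10 windows, 63.1% of 214 FOXA1 regions overlapped H3K27ac, and 74.8% of the 111 outside the ERBB4 window did, beside 50.4% of all FOXA1 regions.

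**Figure D4:**
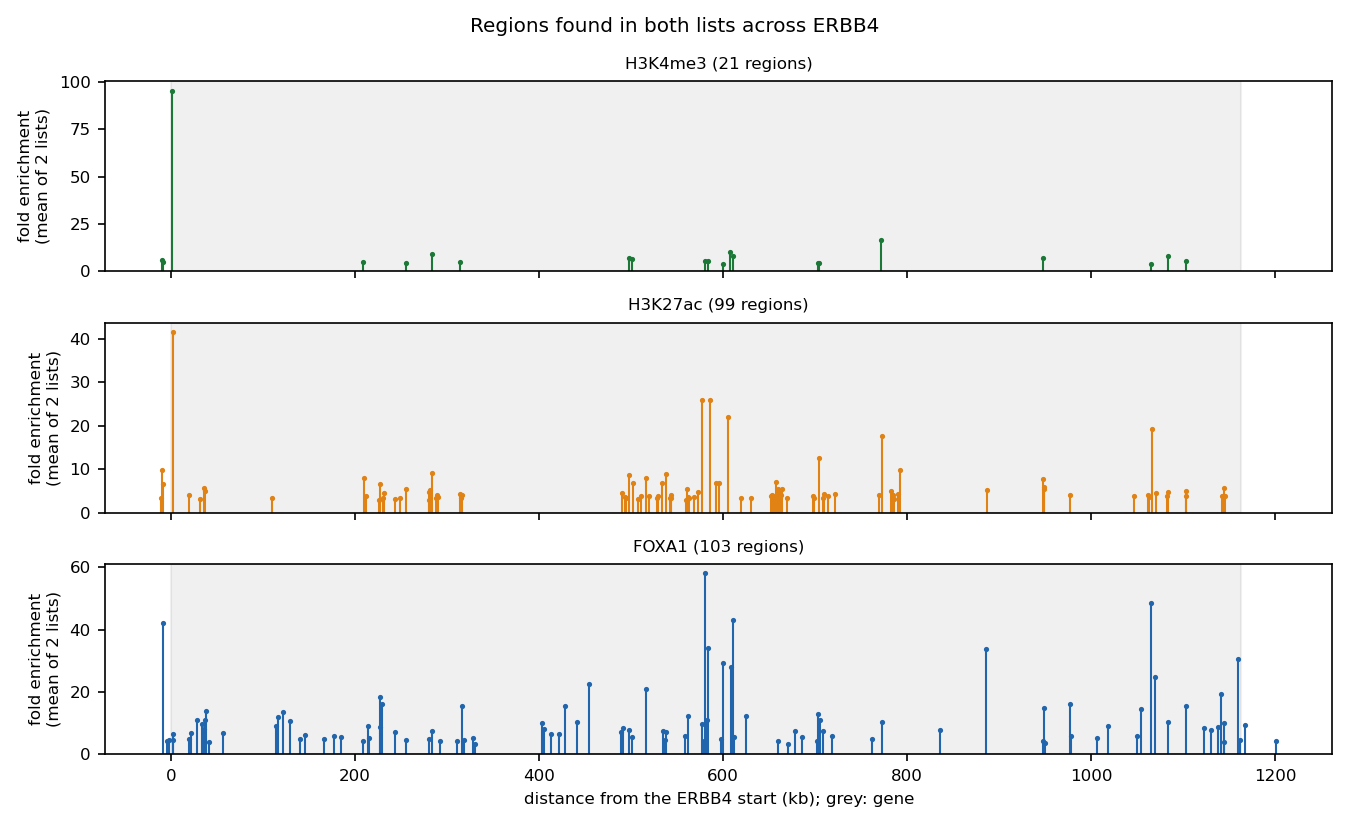
Fold enrichment (mean of the 2 lists, ratio, linear axis from 0) of each H3K4me3, H3K27ac and FOXA1 region against its distance from the ERBB4 start in kb, with the gene shaded. H3K4me3 has a single high region, at the start, and FOXA1 has its highest regions near 581, 611 and 1065 kb.

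After siFOXA1 the 10 windows held 2 and 1 FGFR1 peaks, and with siNT they held 1 and 6. The means were 1.5 ± 0.707 after siFOXA1 and 3.5 ± 3.54 with siNT (SD, n = 2 lists each), a difference of -2 peaks, and the groups overlapped. Without siNT list 2 the difference was 0.5. A two-sided exact permutation test gave p = 1, where 2 lists against 2 cannot go below 0.33. No gene had an FGFR1 region at an end in both siFOXA1 lists, beside 1.95% of all genes, or in both siNT lists, beside 4.85%. Within 50 kb the counts were 0 of 10 after siFOXA1, beside 7.87%, and 1 of 10 with siNT, beside 16.5%.

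DDR1 was the gene where siFOXA1 lists had a start peak and siNT lists did not. After siFOXA1 the internal starts held a peak of 4.82 in list 1 (14 fragments, chr6:30884403-30884602) and of 5.0 in list 2 (15 fragments, chr6:30883958-30884157, over the promoter shown). These do not overlap each other, and both lie inside the untransfected FGFR1 region. A single siFOXA1 list put a peak at a start of 3.85% (list 1) or 3.05% (list 2) of 15812 genes, and a siNT list at 7.28% or 8.08%. Of these genes, 13 (0.0822%) had a start peak in both siFOXA1 lists and in neither siNT list, and 267 (1.69%, with none of the 10 genes) had the reverse. With 2 lists a group, and with DDR1 singled out after its values were seen, this difference was not tested. Beside DDR1, the GTF2H4 and VARS2 site had 6.43 in siFOXA1 list 1 and 6.27 in siNT list 2, and the GTF2H4 end had 4.07 in siNT list 2 alone.

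The siNT lists shared 1 region, in the ERBB2 window at chr17:39754193-39754487, 66.2 kb from the ERBB2 start, with 4.08 in list 1 and 5.33 in list 2. It lay at no end of a protein-coding gene, within H3K4me3 (83.6 and 85.9) and H3K27ac (40.2 and 46.0), and untransfected list 2 had 6.22 there. Neither siFOXA1 list had a peak at it. Other siNT peaks were in list 2 alone: MIEN1 (6.27), a site 13 kb before ERBB2 (4.07) and a peak at ERBB3 (5.33). The ERBB3 peak, at chr12:56079028-56079227, lay beside the untransfected region found in both lists and not over it. Untransfected list 2 alone had peaks that overlapped the site before ERBB2 (5.33) and this ERBB3 peak (4.89). The start of INSR and its internal site had no peak in any of the 4 transfected lists, and 7 of the 11 untransfected regions had none. Most FGFR1 regions elsewhere were also without a transfected region found in both lists. Of all 4736 untransfected FGFR1 regions, 13.8% overlapped a siFOXA1 region and 27.3% a siNT region, beside 0 and 0 of the 11. The transfected lists had the lower depth given above, and its part in this was not tested.

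**Figure D5:**
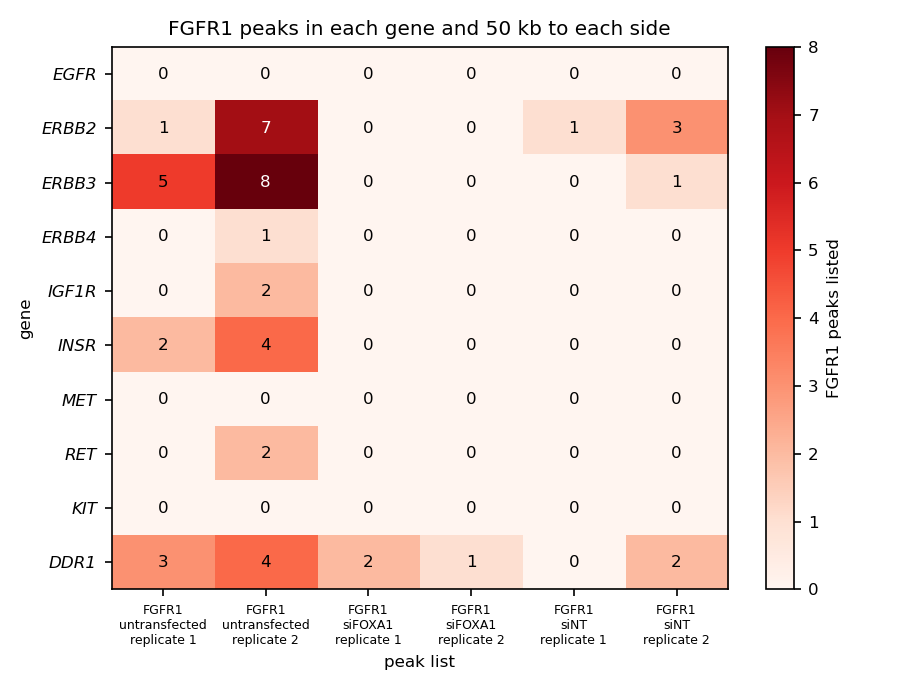
Number of FGFR1 peaks (colour and digits) in each gene with 50 kb to each side, by gene and by FGFR1 list, with 2 untransfected, 2 siFOXA1 and 2 siNT lists. EGFR, MET and KIT are at 0 in all 6 lists, DDR1 has 2 and 1 in siFOXA1 against 0 and 2 in siNT, and ERBB2 has 0 and 0 in siFOXA1 against 1 and 3 in siNT.

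Genes of the same pathway gave a wider view. Of 48 other receptor tyrosine kinases, 7 had an FGFR1 region at an end, beside 19.9% of all genes, and 38 had H3K4me3, beside 66.6%. FGFR4 (10.0 and 13.3), FGFR1 (10.0 and 10.4), EPHB3 (7.73 and 14.4), EPHB4 (6.14 and 8.22), TYRO3 (5.46 and 7.99) and FGFR3 (5.23 and 6.22) were the 6 highest, and FGFR4, FGFR1 and EPHB3 were above INSR, ERBB3 and DDR1 in both lists. FGFR1 is labelled as amplified in these cells, and the part of its copy number in its own peak was not tested. Of 20 ligands, 4 had FGFR1, beside 19.9% of all genes, namely HBEGF (6.60 and 8.22) and TGFA (5.0 and 6.88), which bind EGFR, NRTN (6.37 and 7.77), a GDNF-family ligand of RET signalling, and KITLG (5.46 and 9.55), the ligand of KIT. The other 16, among them the EGFR ligands EGF, AREG, EREG, BTC and EPGN, had none.

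Of 20 adaptors and regulators, 9 had FGFR1 at an end, beside 19.9% of all genes, 14 had Pol II S5P, beside 38.9%, and 20 had H3K4me3, beside 66.6%. SHC1 (10.0 and 15.1) and PTPN11 (10.5 and 12.2), which link activated receptors to Ras signalling, were the highest. ERRFI1 (7.96 and 9.33), an inhibitor of EGFR kinase activity, PLCG1 (7.28 and 7.55), the phospholipase recruited by phosphorylated receptors, SOCS3 (6.37 and 8.88), a cytokine signalling inhibitor, and IRS2 (5.69 and 8.44), the docking protein of INSR and IGF1R, followed. Profiles of the highest peak within 1 kb of either gene end were compared over the 10 untransfected lists. The kinase most like ERBB3 was LMTK2, with a mean difference of 10.6 percentile points. The one most like INSR was TYRO3, with 19.53, next to AXL, with 19.57. The ERBB3 profile includes the PA2G4 start at its other end. Pol II S5P there was 14.6 in list 1 and 7.90 in list 2, against 9.78 and 9.23 at the ERBB3 start. LMTK2 had no FGFR1 peak in list 1 and 7.11 in list 2, and AXL had none in list 1 and 4.0 in list 2.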

How the data were processed

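Peak lists from 14 ChIP-seq samples of CAMA1 cells were used as deposited, 1 list per sample. Samples follow the labels, although the names given to peaks within the files read FOXA2 for the FOXA1 samples and carry other replicate numbers for untransfected FGFR1, so lists 1 and 2 are those of the labels. The submitters' processing notes name hg38, Bowtie2, SAMtools, Picard and MACS2, with neither versions nor roles. Each deposited peak has a position, a fold enrichment (a linear ratio), a summit, a score, and its -log10 p-value and q-value, and the authors' score was not used here. The fold, p-value and q-value of a peak are the authors' own, and they serve here to describe, rank or filter peaks within 1 list. Every fold enrichment in 12 lists lay on a grid set by a single background, and the deposited -log10 p-values that could be read there were those of a Poisson count against it. These values show no adjustment for input or for local copy number.

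Peaks on chromosomes 1 to 22 and X were kept, which left out 0.0227% to 2.74% of a list. Regions are merged peaks of both lists of a group that overlap by at least 1 bp. Genes, their ends and their promoters come from RefSeq (GRCh38.p14), with 19974 protein-coding genes as background. The fragment number at a summit was computed from the fold, as (fragments + 1) over (background + 1) of its list. Percentiles are of fold enrichment within a list. All 10 genes are described. Neighbours are named where an FGFR1 region of both lists lies at their end, and up to 6 genes per pathway list are named by mean percentile of FGFR1 height. The genes and lists were chosen with earlier results of these data known. The labels do not state separate cultures for the samples of a group, and p-values then measure a spread that may be technical, and fragment numbers cover counting error only. The number of peaks after siFOXA1 and with siNT was compared by a two-sided exact permutation test over the 4 lists. The replicate numbers of these lists are shared labels only. Alternatives were a stricter q-value, a reciprocal overlap of 50%, other windows and flanks, lists of equal length, leaving out a list, the replicate block and, added after the data were seen, any RefSeq start. Scripts were tested on simulated peaks and ran in Python 3.11.15 with numpy 2.4.6, pandas 2.3.3, scipy 1.17.1 and matplotlib 3.10.9.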

Additional observations from a re-analysis of the deposited data

How the results depend on the processing

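Of 103 values recomputed under an alternative, 82 stayed within 1.5 times the reported count or kept their direction. The siFOXA1 difference of -2 peaks ranged from -4.5 to 0.5 when a list was left out; it reversed, to 0.5, without siNT list 2. With the replicate block it was -2 (exact permutation p = 1), and the shared replicate numbers of 2 pairs are no evidence of pairing. With a -log10 q-value of at least 5, FGFR1 was at an end of 1 gene (INSR), Pol II S5P at 1 (ERBB3), H3K27ac regions numbered 144 and siNT regions 0. With a window of 3 kb, FGFR1 was at an end of 4 genes and FOXA1 of 7. With FGFR1 lists shortened to equal length, FGFR1 was at an end of 0 genes. Flanks of 20 kb left 0 siNT regions, and flanks of 100 kb gave 1 siFOXA1 region and 2 siNT regions. Using 1 list of a group gave 2 to 5 genes with FGFR1 at an end, 11 to 28 FGFR1 regions, 3 to 6 genes with Pol II S5P at an end, 27 to 31 Pol II S5P regions, 378 to 423 H3K27ac regions, 1 to 2 siFOXA1 and 1 to 6 siNT regions, and 0 to 1 genes with a siNT peak at an end. Fewer peaks or samples enter each stricter setting by construction; otherwise the cause was not tested. What depth limits in the transfected lists was not tested.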
